A study of Mus musculus with 2 samples.

Results

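The genes described here encode subunits of the mitochondrial respiratory chain, complexes I to IV, of the ATP synthase, complex V, and the electron carrier cytochrome c. They were chosen by gene symbol alone, as probe sets with exactly 1 annotated symbol of the Nduf, Sdh, Uqcr, Cox4 to Cox8 or Atp5 subunit families, plus Cyc1 and Cycs. The choice gave 79 genes with 163 probe sets, of 18193 genes on the array. Complex I was represented by 34 genes, complex II by 4, complex III by 9, complex IV by 14 and complex V by 17, and Cycs stood on its own.

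Oligonucleotide arrays read the RNA of gonad-mesonephros complexes, that is, the gonad of the embryo together with the mesonephros, a transient kidney beside it. The wild-type array held RNA of XX embryos at stage E12.5, in days of embryonic development, and the mutant array held RNA of XX Gata4ki/ki embryos of the same age. Gata4ki is a knock-in allele of Gata4, a transcription factor gene of the somatic gonad, made to disturb the contact of the GATA4 protein with its FOG cofactors. The study asked what this contact does in ovarian development. For each array the RNA of 6 pairs of complexes was pooled, so the values average over embryos and over every cell type of gonad and mesonephros. The strain, C57Bl/6, was stated for the mutant only. With 1 array per group there was no replicate error, no test was possible, and all differences describe these 2 arrays. In such bulk tissue, fewer cells of a type and less RNA per cell cannot be told apart.

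Respiratory chain complexes sit in the inner mitochondrial membrane. Complex I takes electrons from NADH and complex II takes them from succinate; ubiquinone, complex III and cytochrome c pass them on to complex IV, which reduces oxygen. Protons pumped on the way drive the ATP synthase. Most subunits are encoded in the nucleus and expressed in nearly all tissues, and complex IV also has isoforms that are known from heart, skeletal muscle or testis.

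Values are MAS5 signals, a linear brightness per probe set. A floor was set at a signal of 24.0, the median over both arrays, below which a probe set was not ordered. Each gene was represented by its brightest probe set, and ratios are mutant over wild type. Of the 79 genes, 75 lay above the floor on both arrays, none on 1 array alone, and 4 on neither array. Above it were 22566 probe sets in wild type against 22534 in the mutant. The 3' to 5' signal ratio of beta-actin, a measure of RNA integrity, was 2.16 in wild type against 2.47 in the mutant, and that of Gapdh 0.901 against 1.10. All 6 somatic gonad markers looked up, including Wt1, Lhx9 and Nr5a1, and all 5 mesonephric markers, including Cdh16 and Pax8, were above the floor on both arrays. The mesonephric markers summed to 2024 in wild type against 1764 in the mutant, with 4 lower in the mutant and 1 higher. Those of the somatic gonad summed to 5674 and 5232, with 3 higher and 3 lower.

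Respiratory chain genes had nearly the same signals on the wild-type and the mutant array. A threshold was set at 25% higher or 20% lower, which are equal steps of 0.32 on the log2 scale, and is called the 25% threshold here. Of the 75 measured genes, 73 lay within it. The other 2, Cox6b2 and Cox7c of complex IV, were lower in the mutant, and no member was 25% higher on its brightest probe set with 1 symbol. Over all measured probe sets of members, 6 were at least 25% higher, as given below. Over all 12300 measured genes, 20.6% were past the 25% threshold, 10.8% higher and 9.8% lower. On its brightest probe set no member reached 1.5-fold, which 6.65% of all measured genes did, or 2-fold, which 1.38% did. The median log2 ratio of the members was 0.01, with quartiles of -0.05 and 0.05. Over all measured genes the median was 0.0062 and the quartiles were -0.13 and 0.15.

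**Figure D1:**
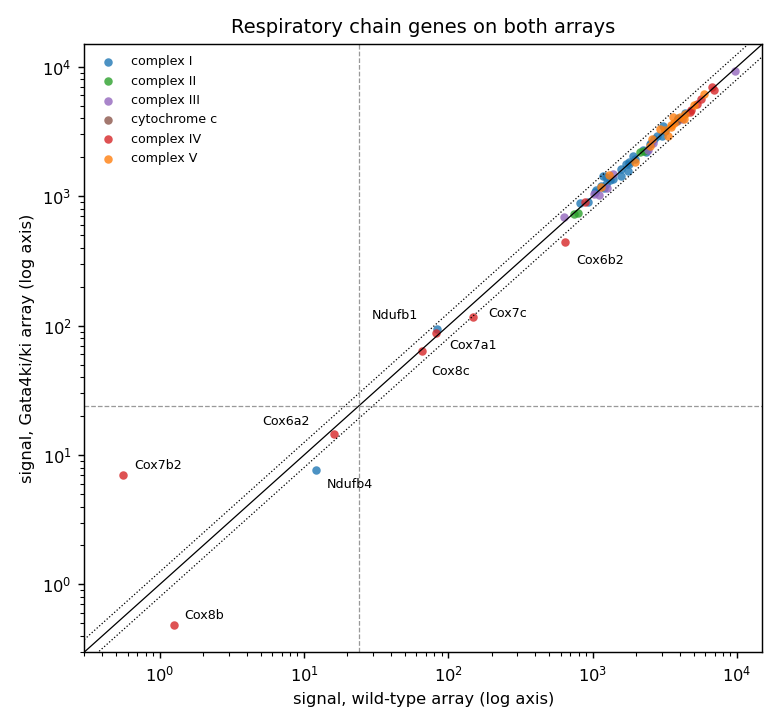
Signal of each of the 79 respiratory chain genes on the wild-type array (horizontal) and the Gata4ki/ki array (vertical), both on log axes, 1 point per gene at its brightest probe set, coloured by complex. The solid line marks equal signals, dotted lines the 25% threshold and dashed lines the floor of 24.0; Cox6b2 and Cox7c are the 2 genes above the floor that lie outside the dotted lines, and Cox6a2, Cox7b2, Cox8b and Ndufb4 lie below the floor on both arrays.

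Bright genes differ less between arrays than dim ones, and most members were bright. A mean signal over 400 was reached by 71 members. Among all 3755 genes that bright, 5.49% were past the 25% threshold, against 1 of these 71 members. Above a mean signal of 1000, a bound chosen after the data were seen, 3.18% of 1415 genes were past it and 0 of 64 members were. The robust SD of the log2 ratio was 0.062 over those 64 members and 0.104 over the 1351 other genes. Members were brighter within this range: 24 of the 64 lay between 1000 and 2000, against 858 of the 1351. By bin, the robust SD was 0.083 for members against 0.117 for other genes at 1000 to 2000. It was 0.068 against 0.091 at 2000 to 4000, and 0.055 against 0.068 over 4000. In the brightest bin, over 4000, the median absolute log2 ratio was 0.044 for 14 members and 0.044 for 157 other genes. Whether the respiratory chain is closer than other genes of like brightness was not tested.

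Complex I is the NADH dehydrogenase, whose nuclear-encoded core subunits include those that carry the flavin and the iron-sulfur clusters. Its 6 core genes had log2 ratios between -0.12 and 0.10. Ndufv1, the flavin-binding subunit, gave 1565 in wild type against 1435 in the mutant, a log2 ratio of -0.12. Its other probe sets, at 1342 and 1328 and at 1256 and 1247, had ratios of -0.02 and -0.01. Ndufs8, an iron-sulfur subunit, lay at the other end with 1897 and 2035, a ratio of 0.10. Its other probe sets had ratios of 0.04 to 0.08, except for one at 523 and 481, with a ratio of -0.12. Ndufs1, the largest core subunit, gave 1033 and 1078, and Ndufv2, its neighbour in the NADH-oxidising module, gave 2223 and 2286. Ndufs3 and Ndufs7 had signals of 1195 and 1156 and of 1954 and 1923. The core genes were split evenly, 3 above and 3 below a ratio of 0, with a median log2 ratio of 0.0087.

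The supernumerary genes of complex I surround the core and serve in assembly and stability. Ndufa6 had the highest log2 ratio of all members, 0.27, with 1183 in wild type against 1423 in the mutant on its single probe set, 1.20-fold higher. It did not reach the 25% threshold. Ndufa3 gave 3061 and 3500 on its brightest probe set, a ratio of 0.19, but 2409 and 2133 on the next, a ratio of -0.18. These probe sets of 1 gene thus pointed opposite ways by about the same amount. Ndufv3 gave 1240 and 1409, a ratio of 0.18. Ndufa4 had the lowest ratio in this complex, -0.15, with 1746 and 1571; its product was first counted to complex I and is now placed in complex IV. The 17 such genes outside the B series had a median log2 ratio of 0.01, with 12 above 0.

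The B series of subunits lies in the distal membrane arm, where complex I moves protons. Of 11 genes, 10 were measured, and 8 of these had a log2 ratio above 0, with a median of 0.04. Ndufb1, on a dim probe set, gave 83.3 in wild type against 95.0 in the mutant, a ratio of 0.19. Ndufb2 gave 822 and 889, a ratio of 0.11, and Ndufb6 gave 2351 and 2183, a ratio of -0.11. The second probe set of Ndufb6 had the opposite sign, with 908 and 1014, and so had that of Ndufb2, with 854 and 823. The probe set read for Ndufb4 was not above the floor, at 12.1 and 7.72. Brighter probe sets annotated to Ndufb4 together with its copies Ndufb4b and Ndufb4c gave 1748 and 2016, and 948 and 1252, log2 ratios of 0.21 and 0.40. The second of these was past the 25% threshold on the high side at a bright signal. They were left out by the rule of 1 symbol, since they cannot separate the copies; the same holds for Ndufa11 with Ndufa11b, at 805 and 982, a ratio of 0.29. Over all of complex I, 23 of 33 measured genes had a ratio above 0, against 6320 of 12300 for all genes, and the median was 0.03.

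Complex II, the succinate dehydrogenase, also belongs to the citric acid cycle. Sdha, the flavoprotein that oxidises succinate, had signals of 2265 in wild type against 2217 in the mutant, a log2 ratio of -0.03. A second bright probe set of Sdha had the opposite sign, with 890 and 953, a ratio of 0.10. Sdhb, the iron-sulfur subunit, gave 2142 and 2195, the highest log2 ratio of this complex on brightest probe sets at 0.04. The membrane anchors Sdhc and Sdhd gave 793 and 745 and 744 and 733, ratios of -0.09 and -0.02. All 4 genes thus lay within the 25% threshold on their brightest probe sets. A dimmer probe set of Sdhc went the other way, with 150 in wild type against 259 in the mutant, a log2 ratio of 0.79. With the median over the measured probe sets in place of the brightest, the ratio of Sdhc was 0.35, past the threshold. The suffix of the dimmer set, _x_at, marks a set with probes that can also bind other transcripts.

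Complex III, the cytochrome bc1 complex, passes electrons from ubiquinol to cytochrome c. Its redox subunits Uqcrfs1, the Rieske iron-sulfur protein, and Cyc1, cytochrome c1, had signals of 1250 and 1163 and of 2633 and 2575, log2 ratios of -0.10 and -0.03. The core proteins Uqcrc1 and Uqcrc2 had ratios of 0.10 and -0.10, with 1386 and 1491 and with 2426 and 2262. Uqcrq, a small subunit, was the highest at 0.14, with 632 and 697, and Uqcr10 the lowest at -0.11, with 1105 and 1025. Uqcrb, Uqcrh and Uqcr11 lay between them. Of the 9 genes, 6 had a ratio below 0, and the median was -0.05. Cycs, the soluble carrier itself, gave 3859 in wild type against 3782 in the mutant, a ratio of -0.03, and its other bright probe sets, at 2171 and 2112 and at 1259 and 1238, had ratios of -0.04 and -0.02.

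**Figure D2:**
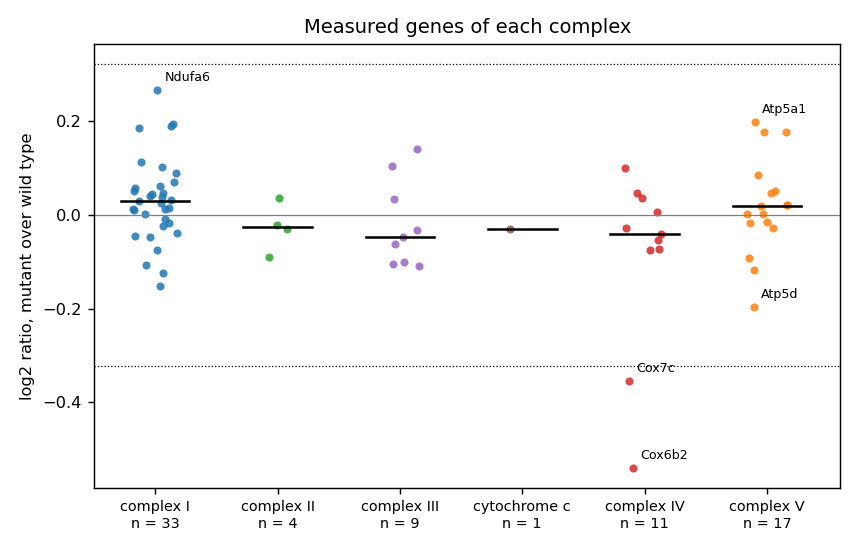
Log2 ratio of mutant over wild type (vertical) for each of the 75 measured genes, by complex, 1 point per gene with a horizontal bar at the median of each group. Dotted lines mark the 25% threshold either way; Cox6b2 at -0.54 and Cox7c at -0.35 lie below them, and Ndufa6 at 0.27 is the highest point.

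Complex IV, cytochrome c oxidase, held the 2 members past the 25% threshold. Its widely expressed nuclear subunits otherwise differed little. Cox5a and Cox5b gave 4702 in wild type against 4463 in the mutant, and 5262 and 5163. Cox6a1 gave 6977 and 6635, Cox6c gave 4794 and 4660, and Cox7a2 gave 6740 and 6967. Cox8a gave 882 and 905. These 5 genes together with Cox8a and Cox6b1 had log2 ratios between -0.08 and 0.05. Cox7c, a small structural subunit, was the exception among the widely expressed ones. It gave 149 and 117 on its brightest probe set, of suffix _s_at, and 40.3 and 31.2 on its other, log2 ratios of -0.35 and -0.37. It was 1.28-fold lower, and with a pseudocount in place of the floor its ratio was -0.32, just within the 25% threshold. Both of its probe sets were dim. At mean signals of 100 to 400 and under 100, 17.7% and 40.6% of all probe sets were past the threshold.

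Cox6b2 had the lowest log2 ratio of all members. This gene encodes the testis isoform of subunit 6b, which binds on the side of the complex where cytochrome c docks. Its single probe set gave 645 in the wild-type array and 444 in the mutant array, 1.45-fold lower, a ratio of -0.54. Among the 5153 probe sets of all genes with a mean signal over 400, 5.65% were past the 25% threshold and 46 were past 1.5-fold, which Cox6b2 did not reach. Its widely expressed paralogue Cox6b1 gave 5632 and 5653 on its brightest probe set, a ratio of 0.0054, and 2733 and 2987 on its other. The difference in Cox6b2 had no second probe set and no replicate behind it. Markers of germ cells, in which testis isoforms are best known, went both ways: Dazl gave 581 and 467, Ddx4 297 and 256, Dppa5a 1868 and 2476 and Kit 131 and 187. All 6 germ cell markers were above the floor on both arrays, 4 higher in the mutant and 2 lower. They summed to 3553 in wild type against 4108 in the mutant. Dppa5a, the brightest of them on both arrays, rose by more than this sum did. The part of germ cells in the Cox6b2 value was not tested.

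The other isoforms of complex IV were dim or below the floor on both arrays. Cox7a1, the heart and muscle isoform of subunit 7a, gave 82.4 in wild type against 88.3 in the mutant. Cox8c, a testis isoform, gave 65.8 and 63.3. Cox6a2 and Cox8b, known from heart and skeletal muscle, gave 16.2 and 14.6 and 1.2 and 0.487, and Cox7b2, known from testis, gave 0.558 and 7.07. None of these 3 was above the floor, so no ratio is given for them. Of 9 skeletal muscle markers 4 were above the floor on each array, while the defining genes Myod1, Myog, Acta1 and Ckm were not. The summed signals of the list were 500 and 498, with Tnni1 at 264 and 311, whereas Actc1, Des and Myl1 were dim and past the 25% threshold on the low side, at log2 ratios of -0.35, -0.38 and -0.38. Their part in the values of complex IV was not tested. Among 7 heart markers, 2 in wild type against 3 in the mutant were above the floor, and Nppa, Nkx2-5, Tnnt2 and Myl2 were below it.

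The upstream sequences of the subunit 6b pair are shown because these paralogues had different ratios, with Ndufa6, the member with the highest ratio, and Cycs, a textbook target of nuclear respiratory factor 1. Each is the 250 bases before the annotated start, 5′ to 3′ on the gene's strand, from RefSeq in GRCm38.p6. Capitals mark GCATGCGC, the centre of the nuclear respiratory factor 1 motif, and CCGGAAG, the core bound by ETS factors such as GABP, on either strand.
Cox6b1, chr7:30626115-30626364, minus strand: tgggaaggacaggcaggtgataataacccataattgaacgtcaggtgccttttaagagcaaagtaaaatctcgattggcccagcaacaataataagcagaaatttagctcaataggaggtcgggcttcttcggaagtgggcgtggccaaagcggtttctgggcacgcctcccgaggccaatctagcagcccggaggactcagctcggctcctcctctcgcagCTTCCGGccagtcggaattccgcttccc
Cox6b2, chr7:4753095-4753344, minus strand: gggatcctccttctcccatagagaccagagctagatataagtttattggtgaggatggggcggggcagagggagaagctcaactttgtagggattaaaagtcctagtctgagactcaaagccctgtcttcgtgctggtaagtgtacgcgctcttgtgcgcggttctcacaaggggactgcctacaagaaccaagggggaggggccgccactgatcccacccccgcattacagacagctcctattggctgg
Ndufa6, chr15:82354292-82354541, minus strand: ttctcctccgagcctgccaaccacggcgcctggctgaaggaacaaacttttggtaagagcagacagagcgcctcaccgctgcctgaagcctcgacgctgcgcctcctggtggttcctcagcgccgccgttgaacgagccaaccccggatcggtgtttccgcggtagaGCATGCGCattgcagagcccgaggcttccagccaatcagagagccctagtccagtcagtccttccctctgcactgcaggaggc
Cycs, chr6:50566570-50566819, minus strand: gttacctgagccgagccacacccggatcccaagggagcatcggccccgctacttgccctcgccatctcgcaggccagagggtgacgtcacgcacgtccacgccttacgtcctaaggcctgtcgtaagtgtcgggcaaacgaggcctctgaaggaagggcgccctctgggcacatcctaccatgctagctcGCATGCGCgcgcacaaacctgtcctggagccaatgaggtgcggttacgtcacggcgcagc
The window of Cox6b1 holds the ETS core once and that of Cox6b2 holds neither motif, while Ndufa6 and Cycs each hold GCATGCGC once. The log2 ratio was 0.27 for Ndufa6 and -0.03 for Cycs, and whether these letters bear on either value was not tested.

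The same motifs were looked up across the promoter table, on both strands of the 300 bases from 250 before to 50 after each start. A promoter was listed for 66 of the 79 members. GCATGCGC was found in 10 of these 66 members, 15.2%, in 3.05% of all 27025 genes listed and in 7.54% of the 3077 genes that also had a mean signal over 400. CCGGAAG was found in 25.8% of members, 9.93% of all genes and 23.1% of the bright genes. AAGATGGCG, the core of the YY1 motif, was found in 9.09% of members, 1.64% of all genes and 4.16% of the bright genes. AGATAA, a form of the GATA motif, was found in 9.09% of members, 12.7% of all genes and 203 of the 3077 bright genes, a share below that of the members. The median GC content was 58.7% for the members, 52.7% for all listed promoters and 62% for those of the bright genes, so the members lay between these. A match is a run of letters in a window and was not tied to the binding of any factor.

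Complex V, the ATP synthase, had all 17 genes above the floor and none past the 25% threshold. The F1 head makes ATP. Its catalytic subunit Atp5b gave 3672 in wild type against 3680 in the mutant, and Atp5c1, the rotating shaft, gave 5051 and 5057, both log2 ratios under 0.01. Atp5a1, the other subunit of the catalytic ring, had the highest ratio of this complex, 0.20, with 3592.5 and 4124, but a ratio of 0.01 on a probe set almost as bright, with 3406 and 3434. Atp5d, in the central stalk, had the lowest ratio, -0.20, with 3350 and 2922. Its second probe set agreed in sign, with 883 and 784 and a ratio of -0.17. Atp5e gave 1955 and 1835.

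Subunit c, which forms the rotating ring in the membrane, is encoded by Atp5g1, Atp5g2 and Atp5g3, whose mature products are the same protein. The 3 genes had signals of 1149 and 1187, of 2584 and 2742, and of 5898 and 6110, with log2 ratios of 0.05, 0.09 and 0.05. All 3 were thus slightly higher in the mutant, by less than the robust SD of 0.12 over bright genes. In the peripheral stalk, which holds the head still, Atp5pb, Atp5h, Atp5j and Atp5o had ratios between -0.12 and 0.02. Among the small membrane subunits, Atp5md and Atp5mpl gave 1296 and 1465 and 2936 and 3322, both ratios 0.18, while Atp5j2, Atp5k and Atp5l lay between -0.03 and 0.02. The median over complex V was 0.02.

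Probe sets for the same gene were read on the same 2 RNA pools, so their spread is not that between embryos; they can differ in noise, in the transcripts they bind and in cross-hybridisation, which were not told apart. Among the 35 members with at least 2 probe sets over a mean signal of 400, the log2 ratios of the brightest and the next probe set differed by a median of 0.085 and by at most 0.37, in Ndufa3. The median absolute ratio of the brightest probe set in the same genes was 0.045, smaller than this disagreement. A difference of 2 ratios carries the noise of both probe sets, so these values are not like measures. In 15 of the 35 genes all such probe sets, from 2 to 5 per gene, pointed the same way and in 20 they did not.

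**Figure D3:**
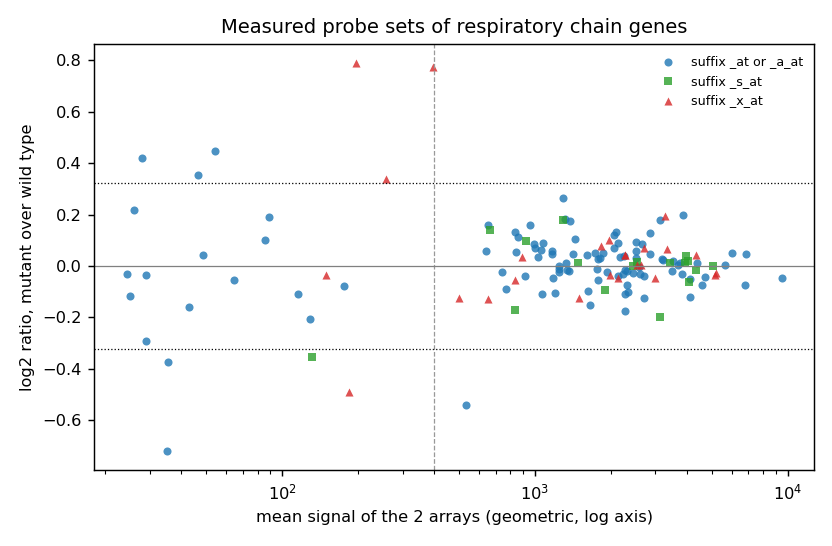
Log2 ratio of mutant over wild type (vertical) against the geometric mean signal of both arrays (horizontal, log axis) for the 145 measured probe sets of respiratory chain genes, with symbols for the probe set suffix. Dotted lines mark the 25% threshold and the dashed line a mean signal of 400; 10 of the 11 probe sets outside the dotted lines lie left of it, and the remaining one is that of Cox6b2.

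Of the 163 probe sets, 145 exceeded the floor in wild type, in the mutant or in both, and 11 of these were past the 25% threshold, 6 higher and 5 lower. The set for Cox6b2 was the one past it among 121 with a mean signal over 400, and the other 10 were among 24 dimmer sets. At mean signals of 100 to 400, 5 of 9 member sets were past it against 17.7% of all probe sets, and under 100, 5 of 15 were against 40.6%. Several of these disagreed with brighter probe sets of the same gene. Ndufa7 gave 303 and 519 on an _x_at set, a log2 ratio of 0.77, while its 4 brighter sets had ratios between 0.04 and 0.12. Ndufs4 gave 219 and 156 on an _x_at set, a ratio of -0.49, against -0.04 on its brightest. Uqcr10 gave 230 and 291 on an _x_at set, a ratio of 0.34, against -0.11 on its brightest. Ndufa10, Atp5c1 and Ndufb8 each had a set under a signal of 100 with ratios of -0.72, 0.45 and 0.35, where their bright sets had 0.0013, 0.0018 and 0.05. A dim set of Sdha, below the floor in wild type, gave 22.1 and 32.2, at least 0.42.

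Other nuclear genes of mitochondria were looked up in lists to place these values. Of 7 measured subunits and regulators that the symbol rule does not take in, 6 lay within the 25% threshold, among them Cox4i1, the largest nuclear subunit of complex IV, at 5903 and 5895 and Cox7a2l, a supercomplex factor, at 3024 and 3024. Ndufa4l2, a paralogue of Ndufa4 that is induced in hypoxia, was below the floor in wild type, at 10.0, and gave 38.4 in the mutant, at least 1.60-fold higher. The mitochondrially encoded complex I subunit ND5, the one mitochondrial transcript matched, gave 3063 and 3038. Cox4i2, a lung isoform, was below the floor on both arrays.

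Assembly factors, which help build the complexes and are not part of them, were dimmer. Of 13 complex I assembly genes, 1 was past the 25% threshold, on the low side: Ndufaf6 gave 249 in wild type against 188 in the mutant, 1.33-fold lower. Ndufaf3 gave 200.4 and 232, and Nubpl, an iron-sulfur cluster carrier, 317 and 348. Among 28 measured assembly genes of complexes II to V, 1 was higher and 1 lower. Coa7 gave 237 and 305, 1.29-fold higher, and Ttc19, a complex III factor, 144 and 95.0, 1.51-fold lower. These values are from the brightest of 2 and of 3 measured probe sets. Ndufaf6, Coa7 and Ttc19 had mean signals of 100 to 400, where 17.7% of all probe sets were past the threshold. The copper chaperone Cox17 gave 907 and 730, a log2 ratio of -0.31, and Cox20 gave 983 and 808, a ratio of -0.28. These lists had medians of -0.01 and -0.0043.

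**Figure D4:**
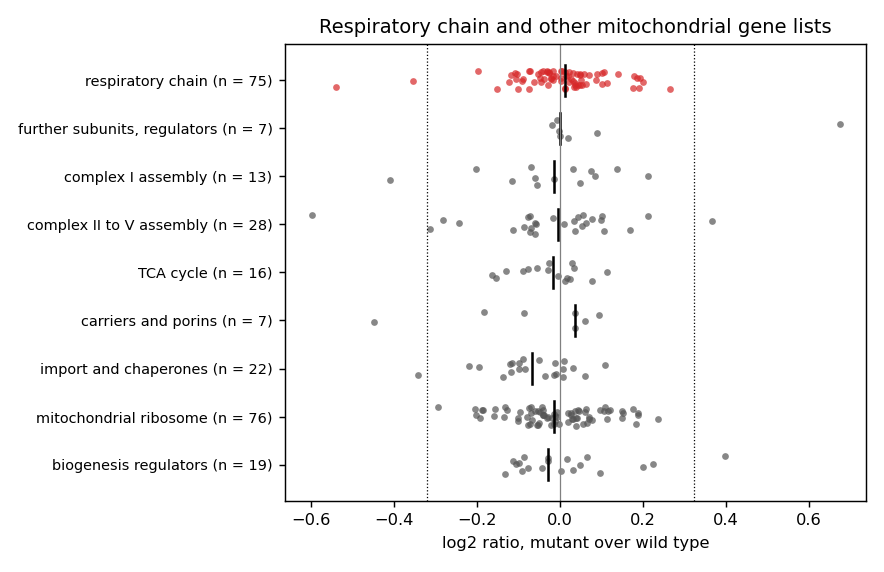
Log2 ratio of mutant over wild type (horizontal) for the measured genes of the respiratory chain and of 8 other lists of mitochondrial genes, 1 point per gene, with a vertical bar at each median; dotted lines mark the 25% threshold. All medians lie between -0.07 and 0.04, and Ndufa4l2, drawn at its bound of 0.67, is the point farthest right.

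The citric acid cycle, the mitochondrial ribosome and the import machinery had few genes apart. None of 16 citric acid cycle genes and none of 76 mitochondrial ribosomal protein genes was past the 25% threshold, and their median log2 ratios were -0.02 and -0.01. Sucla2, a succinyl-CoA ligase subunit, gave 1394 and 1243, and Mrpl47 gave 612 and 499. Import and chaperone genes had the lowest median, -0.07, with 16 of 22 below 0. Over all measured genes 5980 of 12300 were below 0, and 1884 of 3755 among those with a mean signal over 400. In the import and chaperone list Tomm40, the import channel, was 1.27-fold lower, with 221 and 174, and Hspd1, a chaperonin, gave 3995 and 3628. Among carriers and porins, Slc25a31, the ADP/ATP carrier known from male germ cells, gave 112 and 82.2, 1.36-fold lower, while the widely expressed Slc25a5 gave 2808 and 2925. At the mean signals of Tomm40 and Slc25a31, 100 to 400 and under 100, 17.7% and 40.6% of all probe sets were past the threshold.

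Regulators of mitochondrial biogenesis were also close. Of 19 genes, 1 was past the 25% threshold. Ppargc1a, the coactivator PGC-1alpha, gave 37.3 in wild type against 49.2 in the mutant, 1.32-fold higher, at signals just above the floor. This was the brightest of 5 measured probe sets, and under a mean signal of 100, 40.6% of all probe sets were past the threshold. Pprc1, a related coactivator, gave 408 and 476, a log2 ratio of 0.22, and Tfam, which packages mitochondrial DNA, gave 840 and 766, a ratio of -0.13. The median of the list was -0.03.

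Markers of several cell types differed between the arrays, beside a median log2 ratio of 0.01 for the respiratory chain. Summed signals of 4 steroidogenic genes were 110.0 in wild type against 636 in the mutant, with 1 and 4 of them above the floor. Those of 8 macrophage genes were 1422 and 2231, with all 8 above the floor on both arrays and 6 at least 25% higher. Those of 8 erythroid genes were 16505 and 17881, with 7 and 8 above the floor and 4 at least 2-fold higher. The 4 endothelial genes summed to 660.0 and 660.3 but went both ways, with Kdr at a log2 ratio of 0.29 and the other 3 below 0, of which Cdh5 and Tek, at -0.38 and -0.44, were past the 25% threshold. The part of these cells in any single member's value was not tested.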

How the data were processed

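The authors deposited MAS5 signal intensity per probe set on a linear scale, per the submitters' processing notes (version and genome build not given in the sources used here). Without the top and bottom 2%, the mean was 150.0 on both arrays, so each had been scaled by 1 factor. Total RNA had been converted to biotin-labelled cRNA, per the labels' protocols. The intensities were used as deposited. Probe sets were named from the platform annotation: 932 with several symbols were left out, and 64 controls were not used. Values below the 50th percentile, 24.0, were set to it before log2, and a ratio with 1 array below is a bound. The number of arrays limits the precision. The thresholds were 25% higher or 20% lower, 1.5-fold and 2-fold. Robust SD is the scaled median absolute deviation. The ratio calculation was tested on simulated data. Python 3.11.15, pandas 2.3.3 and statsmodels 0.14.6 were used. Named genes were, per complex, those past the 25% threshold, the highest and lowest ratio, isoform families, catalytic subunits of small complexes and genes below the floor, and up to 4 per other list; further genes complete a group. Members and lists were chosen with earlier results of these data known. Alternatives covered floor, pseudocount, probe set choice, scaling and member list.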

Additional observations from a re-analysis of the deposited data

How the results depend on the processing

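The median log2 ratio of the respiratory chain genes lay between 0.0075 and 0.02 across 9 alternative settings. Medians of complexes I, III and IV kept their sign in all 9, from 0.03 to 0.04, from -0.05 to -0.03 and from -0.05 to -0.03. Changing the floor or leaving out muscle and testis isoforms left the medians of complexes I and III unchanged, so these settings could not alter their sign. The median of complex II ranged from -0.03 to 0.07 and that of complex V from -0.0031 to 0.03. Of 153 comparisons of a median or count with its main value, 146 moved by less than the robust SD of bright genes, 0.12, or, for counts, by at most 1.5 times. That tolerance is wider than any of the medians, so a median could change sign and still count as unmoved. Carriers and porins did so, from 0.04 to -0.04 with quantile normalization. The citric acid cycle, the biogenesis regulators, both assembly lists and the subunits outside the symbol rule also changed sign under some setting. The 7 others were counts of members past the 25% threshold, 2 in all, 0 higher and 2 lower at the main setting. With log2(value + 16) there was 1 in all and 1 lower, since Cox7c moved to -0.32. With the median over probe sets there were 4 in all and 1 higher, as Sdhc came to 0.35 and Ndufa10 to -0.36. Without _s_at and _x_at sets 1 was higher, Atp5c1, left with a dim set at 0.45. Without muscle and testis isoforms 1 remained in all, 1 lower, since Cox6b2 was left out. Cox6b2 stayed between -0.55 and -0.52 in the 8 settings that keep it. Atp5a1 came to 0.01 with the median over probe sets. No scaling moved the median of all genes by 0.1. No paired analysis was possible because each group has 1 array. At this signal over background, ratios of sets under 100 are the least certain, and 1 array per group cannot show the spread between embryos.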
